A study of Mus musculus with 6 samples.

Results

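The data hold 9 mouse genes of the GABA system: Gad1 and Gad2 of GABA synthesis, Slc32a1 of vesicle loading, Slc6a11 of uptake, Abat of breakdown, and Pvalb, Lhx6, Reln and Cnr1, which mark classes of interneurons. They were taken by name, and every probe set annotated with 1 gene symbol, that of a member, was used. This gave 19 probe sets among the 45037 on the array that are not controls, and 9 of 18193 gene symbols. The arrays compare control mice with transgenic mice that the series title gives as HuD overexpressors. HuD is a neuronal RNA-binding protein. Total RNA of isolated hippocampal cells, given as DGCs and, from what is known of the study, dentate granule cells, was measured on 6 arrays: 1 from mouse 1 and 2 from mouse 2 of each group. Strain, sex, age, the design of the transgene and its promoter were not given in the labels used here, and all samples share an entry on preservation that is not explained. On 3 arrays the title holds the term re-LCM, also unexplained: those of mouse 1 in both groups and the first array of transgenic mouse 2. The 3 other arrays are all from mouse 2 by the descriptions. Comparisons within the re-LCM or within the other arrays thus rest on 1 control mouse each. The titles number the pair of arrays described as control mouse 2 as control 1 and control 2, so which mouse they came from rests on the descriptions alone.

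GABA is the main inhibitory transmitter of the forebrain. It is made from glutamate by the enzymes GAD67 (gene Gad1) and GAD65 (gene Gad2), loaded into vesicles by VGAT (Slc32a1), taken up from the synapse by plasma membrane transporters, of which GAT-3 (Slc6a11) is mostly astrocytic, and broken down by GABA transaminase (Abat). Dentate granule cells release glutamate, but they are known to hold GAD67 and GABA in their mossy fibres as well, as reported for rodents. Parvalbumin (Pvalb) marks fast-spiking basket and axo-axonic cells, and Lhx6 is a transcription factor of interneurons born in the medial ganglionic eminence. Reelin (Reln) is secreted by interneurons and Cajal-Retzius cells. The cannabinoid receptor CB1 (Cnr1) sits mainly on the terminals of cholecystokinin basket cells.

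None of the 9 genes passed the test for a difference between transgenic and control mice. Gad1 was bright and nearly constant on all 6 arrays. Cnr1 was lower on each transgenic array than on any control array, with a difference of means of -0.32 on the log2 scale. Gad2, Slc32a1 and Pvalb varied between single arrays by more than they varied between the groups. Slc6a11 and Lhx6 were near or under the floor on some arrays, and readings of their brightest probe sets separated by the array titles rather than by group. Their other probe sets lay under the floor on all 6 arrays (Slc6a11) and on 4 (Lhx6), so they are no check on that separation. Over all probe sets, 8.59% separated by title. Values are scaled linear intensities, which have no unit and cannot be set against each other between probe sets. Intensities under 10.1, the 25th percentile over all arrays, were raised to that floor before log2 was taken, so values under it have no order. Differences are log2 transgenic minus control with the standard error (SE) of a limma fit on 2 against 2 mice, the 2 arrays of a mouse averaged. Bulk arrays cannot tell apart fewer cells of a type and less RNA per cell.

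The cells carried granule cell markers in both groups. Dsp, a desmosomal gene strong in granule cells, read 7009, 8376 and 9391 in the controls (listed throughout as mouse 1, then the first and second array of mouse 2) and 7007, 7845 and 6366 in the transgenics. Tdo2 read 318 to 406 in the controls and 230 to 375 in the transgenics, and Prox1, a transcription factor of granule cells, 599 to 651 and 497 to 604. The mean log2 level of 9 granule cell markers, centred on the 6 arrays, lay between -0.07 and 0.06. The array medians lay between 32.3 and 36.8.

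**Figure D1:**
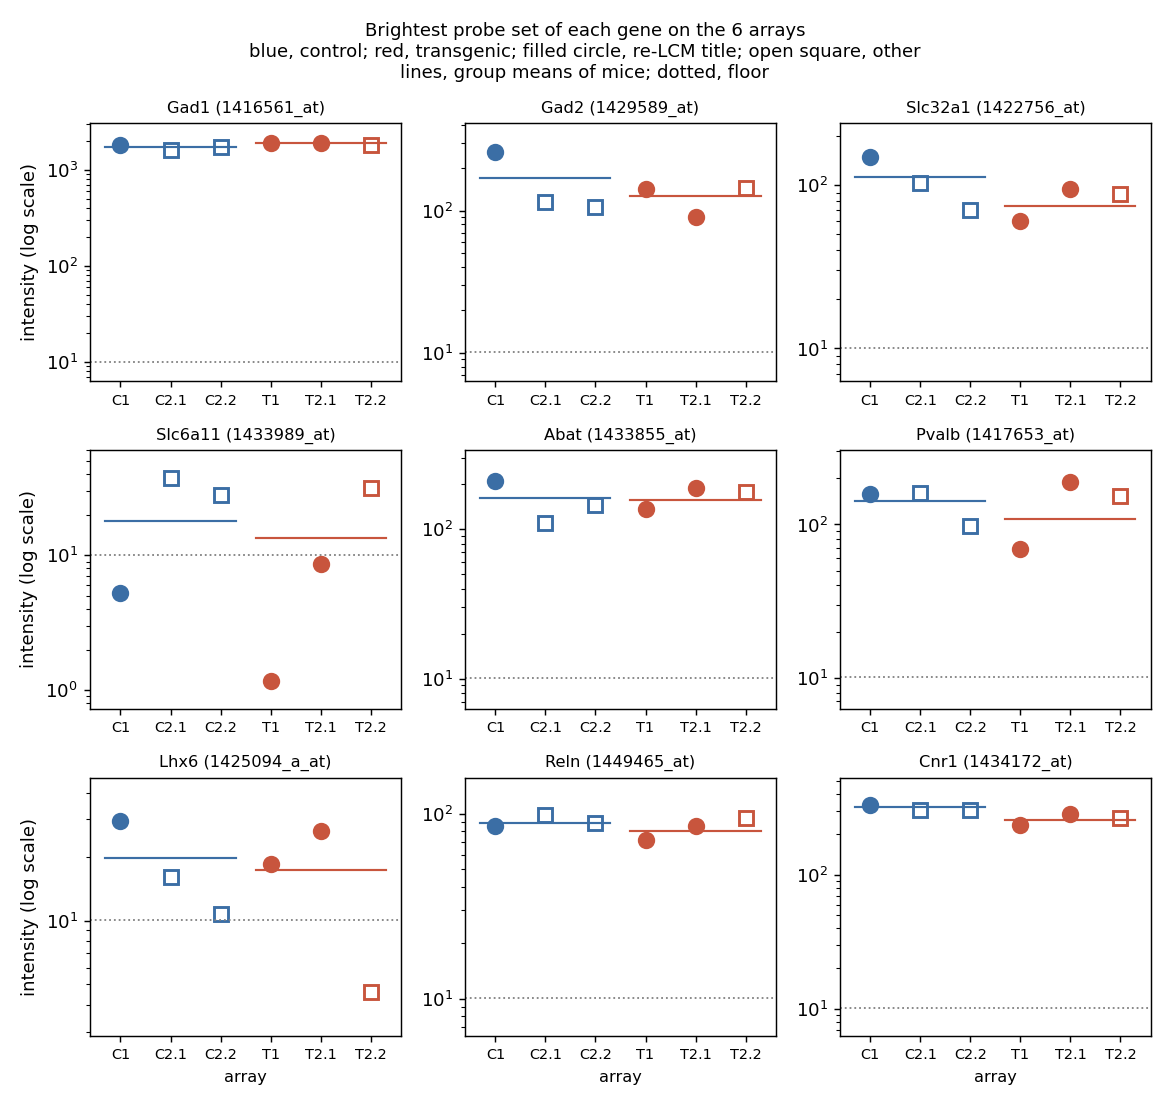
Intensity (log axis) of the brightest probe set of each of the 9 genes on the 6 arrays, with control (C) in blue, transgenic (T) in red, mouse number and array number below, filled circles for re-LCM titles and open squares for others. Horizontal lines are group means over mice of the floored log2 values and the dotted line is the floor of 10.1: Gad1 lies flat between 1618 and 1912, while Slc6a11 falls under the floor on all 3 re-LCM arrays.

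For synthesis, Gad1 gave the steadiest signal of the set. Its brighter probe set read 1795, 1618 and 1748 in the controls and 1912, 1882 and 1819 in the transgenics. Every transgenic array lay above every control array, but by little: the group means were log2 10.76 ± 0.07 and 10.88 ± 0.03 (SD, n = 2 mice), a ratio of 1.08 (log2 0.11, SE 0.15, 95% interval -0.29 to 0.52, limma adjusted p = 0.999). The 2 arrays of a mouse differed by 0.11 in the control and by -0.05 in the transgenic mouse 2, array 2 minus array 1. The control pair thus differed by as much as the groups did. Its SD over the 6 arrays was 0.086, below that of all but 3.11% of tested genes; the median SD of the 759 genes within 0.5 log2 units of its level was 0.15. Its other probe set was dim, with 18.9, 8.40 and 77.4 in the controls and 21.5, 25.9 and 33.4 in the transgenics. The 2 control readings of mouse 2 lay 2.94 log2 units apart, on the floored scale, the widest such gap among the 19 probe sets. The group difference of that probe set was 0.13 (SE 0.31).

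Gad2 was less steady. Its brighter probe set read 257, 115 and 106 in the controls and 142, 90.2 and 145 in the transgenics. Control mouse 1 alone stood high, and the other 5 arrays overlapped. The difference was -0.40 (SE 0.44, interval -1.55 to 0.74, limma adjusted p = 0.999), and it was 0.21 without control mouse 1, -1.01 without control mouse 2. Among re-LCM arrays it was -1.19 and among the others 0.39. The 2 arrays of transgenic mouse 2 differed by 0.69, more than the groups. The second probe set read 34.5, 34.6 and 35.5 in the controls and 21.2, 36.2 and 32.9 in the transgenics. It did not share the high value of control mouse 1: there the low array was transgenic mouse 1, and the difference was -0.37 (SE 0.31).

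For vesicle loading, Slc32a1 had the largest difference of the tested members, without passing the test. The brightest probe set read 149, 103 and 70.1 in the controls and 60.1, 94.2 and 88.2 in the transgenics. The highest value was that of control mouse 1 and the lowest that of transgenic mouse 1, and the arrays of mouse 2 overlapped between groups. The ratio was 0.657 (log2 -0.61, SE 0.36, interval -1.56 to 0.34, limma adjusted p = 0.999). Without control mouse 1 the log2 difference was -0.20, without transgenic mouse 1 -0.31, without control mouse 2 -1.01. Within the re-LCM arrays it was -0.99 and within the others 0.05. The 3 other probe sets of Slc32a1 were under the floor on 5 of 6 arrays each, with highest readings of 21.0, 15.6 and 14.3 on 3 different arrays, and gave no usable difference.

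For breakdown, Abat had nearly equal group means. Its brighter probe set read 211, 110 and 145 in the controls and 136, 189 and 177 in the transgenics. The highest and the lowest value were both from control mice. The difference was -0.05 (SE 0.32, interval -0.88 to 0.78, limma adjusted p = 0.999), and its sign turned without control mouse 1 (0.32) and without transgenic mouse 1 (0.16). It was -0.40 within the re-LCM and 0.49 within the other arrays. The dimmer probe set read 2.60 on transgenic mouse 2 array 1 and 13.0 to 35.2 elsewhere.

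For uptake, Slc6a11 did not pass the filter. The brightest probe set read 5.27, 37.6 and 28.0 in the controls and 1.17, 8.66 and 31.8 in the transgenics. The 3 arrays under the floor were exactly the 3 with re-LCM in the title, and the 3 readings of 28.0 or more were exactly the others, in both groups. The group difference was -0.43 (SE 0.81, interval -3.17 to 2.31), with 3 arrays set to the floor, 1 in the control and 2 in the transgenic group, so its size depends on the floor. Within the other arrays it was -0.03, and within the re-LCM arrays every value was at the floor. The second probe set was under the floor on all 6 arrays, at 0.880 to 9.18.

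Among the interneuron markers, Pvalb, a calcium-binding protein, had a single probe set, with 159, 161 and 98.2 in the controls and 69.4, 190 and 152 in the transgenics. Transgenic mouse 1 was lowest and transgenic mouse 2 array 1 highest, so the transgenic arrays spanned the whole range. The difference was -0.38 (SE 0.46, interval -1.59 to 0.83, limma adjusted p = 0.999) and was 0.27 without transgenic mouse 1 and -1.03 without transgenic mouse 2. It was -0.47 within the re-LCM and 0.27 within the other arrays. The arrays of control mouse 2 differed by -0.72, larger in size than the group difference.

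Lhx6 was dim. The brightest probe set, which did not pass the filter, read 29.5, 15.9 and 10.8 in the controls and 18.4, 26.4 and 4.59 in the transgenics. Here the re-LCM arrays, at 18.4 to 29.5, lay above the others, at 4.59 to 15.9, in both groups, opposite to Slc6a11. The group difference was -0.18 (SE 0.51), -0.42 within the re-LCM and -0.38 within the other arrays, with 0.40 without control mouse 1 and -0.77 without control mouse 2. The second probe set was under the floor on 4 arrays and highest, at 17.4 and 13.0, on 2 arrays without the tag, so the 2 Lhx6 probe sets did not follow the tag the same way.

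Reln varied little. Its brighter probe set read 85.3, 97.9 and 89.0 in the controls and 71.6, 85.3 and 94.3 in the transgenics. The groups overlapped, with transgenic mouse 1 lowest. The difference was -0.16 (SE 0.19, interval -0.65 to 0.34, limma adjusted p = 0.999), -0.13 within the re-LCM and 0.01 within the other arrays. Its second probe set read 23.0 on control mouse 2 array 1 and 24.5 on transgenic mouse 2 array 1 and lay under the floor on the other 4 arrays.

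Cnr1 had the smallest p of the tested members. The brighter probe set read 333, 307 and 302 in the controls and 237, 285 and 265 in the transgenics. The groups did not overlap. The means were log2 8.31 ± 0.09 and 8.0 ± 0.15 (SD, n = 2 mice), a ratio of 0.802 (log2 -0.32, SE 0.17, interval -0.77 to 0.13, limma adjusted p = 0.999). Arrays of a mouse differed by -0.02 in control mouse 2 and by -0.10 in transgenic mouse 2, less than the groups. The difference was -0.36 within the re-LCM and -0.20 within the other arrays, each resting on a single control mouse. It ran from -0.42 to -0.21 when single mice or arrays were left out. The dimmer probe set went the other way, at 31.3, 18.2 and 32.7 in the controls and 30.6, 48.7 and 26.4 in the transgenics, a difference of 0.26 (SE 0.19) with overlap.

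**Figure D2:**
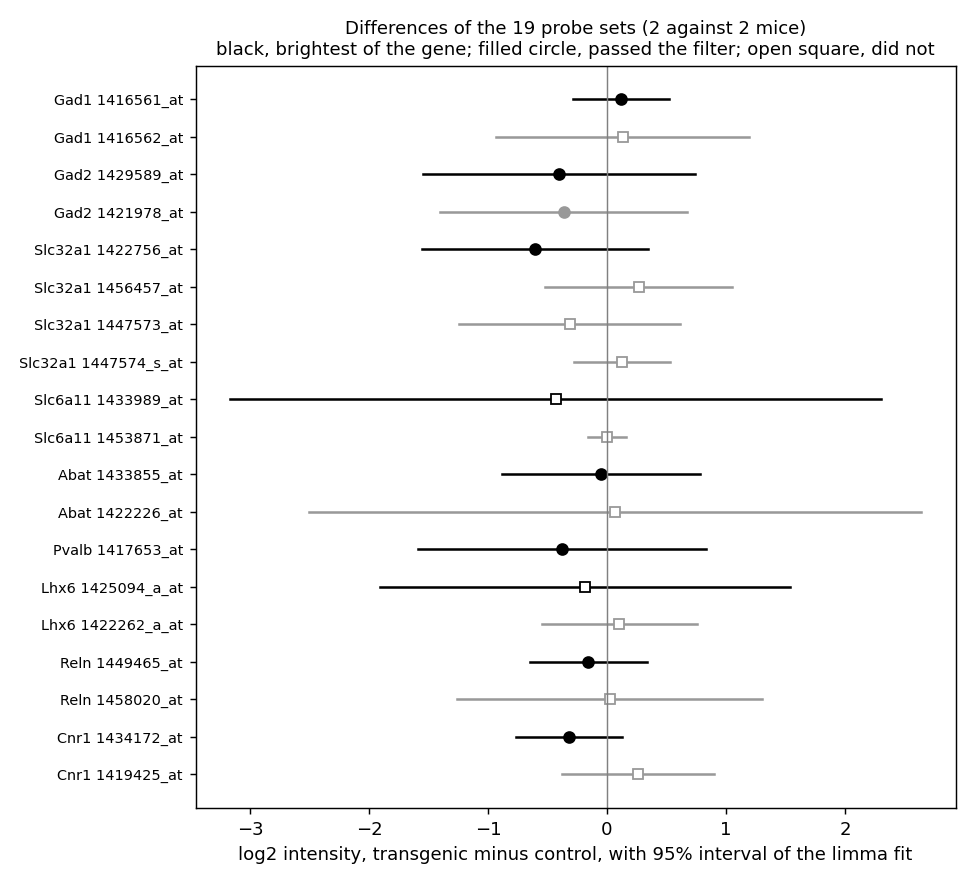
Log2 difference, transgenic minus control, of all 19 probe sets with the 95% interval of the limma fit on 2 against 2 mice. Black marks the brightest probe set of a gene, filled circles those that passed the filter on dim signals, open squares those that did not: every interval includes 0, and those of Gad1 and Cnr1 are the narrowest among the tested genes.

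Of the 9 genes, 7 passed the filter through their brightest probe set, which asked for a mean log2 level above the median probe set, 4.92. The other two were Slc6a11 and Lhx6. Of the 7 tested, 0 were called at an adjusted p of 0.05 (limma), as were 0% of the 14678 tested genes, and 0 had an unadjusted p under 0.05, against 4.31% of tested genes. The transgenic mean was higher for 1 (Gad1) and lower for 6, with a median of -0.32 against 0.0026 over all tested genes. Groups did not overlap for 2 of the 7 (Gad1 and Cnr1), against 8.07% of all tested genes. Over all 19 probe sets, 8 had a higher and 10 a lower mean, and 1 was at the floor throughout; 0 were called among the 0% called over 45037 probe sets, 0 had an unadjusted p under 0.05 (6.49% of all probe sets did), and 2 did not overlap (7.03% of all). For 5 of the 8 genes with more than 1 probe set the differences had opposite signs, and the dimmer ones were mostly close to the floor.

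**Figure D3:**
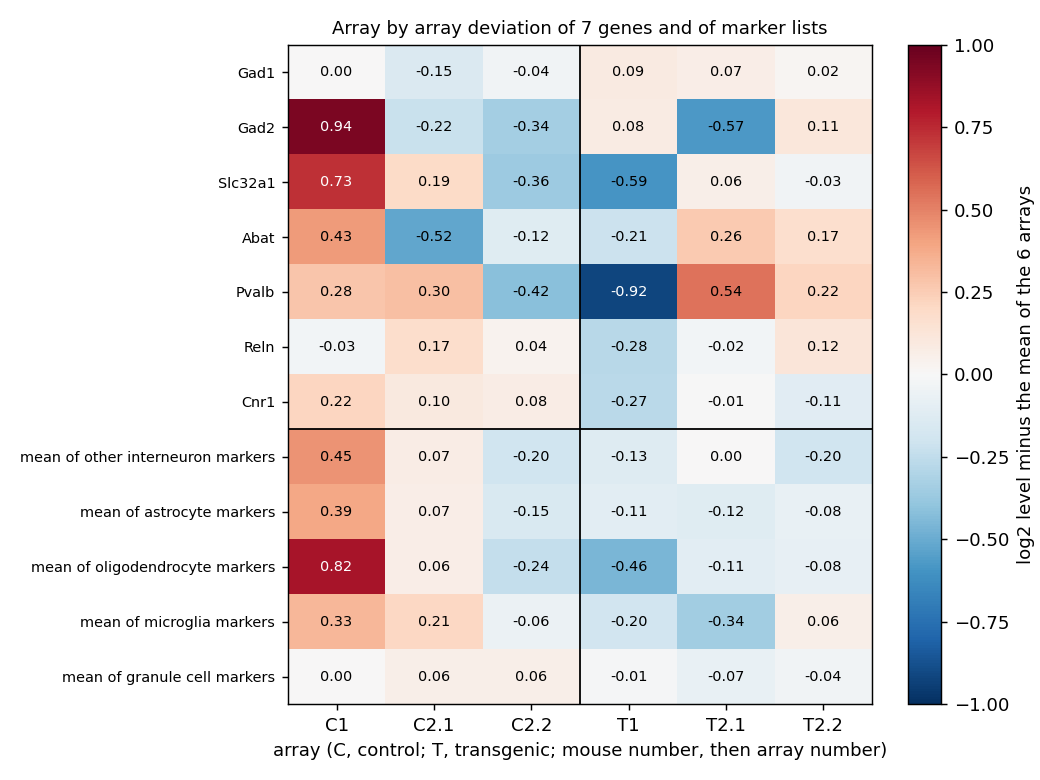
Log2 level on each array minus the mean of the 6 arrays, for the 7 genes that passed the filter and for the mean of 5 marker lists (C, control; T, transgenic; mouse number, then array number; blue low, red high). Gad2 (0.94) and Slc32a1 (0.73) were highest on control mouse 1. The means of oligodendrocyte (0.82), other interneuron (0.45), astrocyte (0.39) and microglia (0.33) markers were highest there too. Gad1, Reln and the granule cell markers were near 0 on that array.

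The genes did not follow 1 common profile. On control mouse 1, Gad2 stood 0.94, Slc32a1 0.73, Abat 0.43 and Pvalb 0.28 above their own means over the 6 arrays, Cnr1 0.22, while Gad1 was at 0.0013 and Reln at -0.03. On transgenic mouse 1, Pvalb was at -0.92, Slc32a1 at -0.59, Reln at -0.28 and Cnr1 at -0.27, while Gad2 was at 0.08 and Gad1 at 0.09. Marker lists also differed between arrays. The mean of 16 other interneuron markers was highest on control mouse 1, at 0.45, and -0.20 to 0.07 elsewhere (-0.13 on transgenic mouse 1). That of 9 pyramidal and mossy cell markers was 0.30 on control mouse 1 and -0.32 to 0.09 elsewhere. The mean of 9 measured oligodendrocyte markers was 0.82 on control mouse 1 and -0.46 on transgenic mouse 1, with -0.24 to 0.06 on the other 4, and their summed intensity was 4876 to 12233 in the controls and 5656 to 8273 in the transgenics. The 12 astrocyte markers had means of 0.39 on control mouse 1 and -0.15 to 0.07 elsewhere (-0.11 on transgenic mouse 1), with sums of 12311 to 17860 and 10977 to 14374. The 8 microglia markers had 0.33 on control mouse 1, 0.21 on control mouse 2 array 1, their lowest mean, -0.34, on transgenic mouse 2 array 1 and -0.20 on transgenic mouse 1, with sums of 3246 to 4608 and 3079 to 3759. The defining markers Mog and Olig2 were under the floor on 3 arrays each, and Aif1 on 4. Between groups, 0 of the 9 oligodendrocyte markers were higher and 9 lower (median -0.57), of the astrocyte markers 2 higher and 10 lower (-0.21), of the microglia markers 0 higher and 8 lower (-0.35), of 9 pyramidal and mossy cell markers 2 higher and 7 lower (-0.23) and of 9 granule cell markers 3 higher and 6 lower (-0.06), with 0 called in each list. The first genes by p were Sox10 (-1.20, SE 0.40) and Mag (-0.65) for oligodendrocytes, and S100b (-0.87, SE 0.35) and Clu (-0.47) for astrocytes. For microglia they were Laptm5 (-0.37, SE 0.16) and C1qc (-0.60), and for pyramidal and mossy cells Neurod6 (-0.85, SE 0.39) and Fibcd1 (1.02, SE 0.48). Of these, only Sox10 did not overlap between groups, as for 8.07% of all tested genes. C1qc and Neurod6 passed the filter of 4.92 through the controls, with transgenic means of log2 4.83 and 4.70 under it. Fibcd1 passed it through the transgenics, with a control mean of log2 4.9. The part of these cell types in the levels of the 9 genes was not tested.

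Spread set the genes apart as well. Over the 6 arrays the SD was 0.55 for Pvalb, 0.53 for Gad2, 0.46 for Slc32a1 and 0.35 for Abat, larger than in 88.9%, 87.3%, 81.9% and 67.5% of tested genes. Genes within 0.5 log2 units of their levels had median SDs of 0.27, 0.27, 0.32 and 0.25. Cnr1 (SD 0.17, against 0.21 for genes near its level) and Reln (0.16, against 0.33) were steadier than such genes. Likeness to a member was the root mean square difference of the centred log2 values over 6 arrays, among 11131 named genes. The nearest gene was Cetn4 for Gad1 (0.024), Asf1a for Gad2 (0.16), Npas3, a transcription factor, for Slc32a1 (0.099) and Apln for Abat (0.066). For Pvalb B330016D10Rik and Cntnap4, a neurexin relative, were nearest (0.11 each), for Reln Grb14 (0.031) and for Cnr1 Larp4 (0.028). With 6 arrays that share mice, such likeness is a description.

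The arrays with re-LCM in the title were compared with the others, in a limma fit with group and tag over 6 arrays, taken as separate samples. For Slc6a11 the 3 tagged arrays were all set to the floor, so the size of its difference and its error depend on the floor chosen and are not given; the readings were 1.17 to 8.66 with the tag and 28.0 to 37.6 without it. Lhx6 had a difference, tagged minus untagged, of 1.15 (SE 0.25, limma adjusted p = 0.790), with 1 untagged array at the floor. Reln read 71.6 to 85.3 with the tag and 89.0 to 97.9 without it, a difference of -0.20 (SE 0.17, adjusted p = 0.966). These 3 of 19 probe sets did not overlap between tagged and untagged arrays, against 8.59% of all probe sets. None was called, among 0% of tested genes and 0% of all probe sets. Leaving out each array in turn gave 1.03 to 1.27 for Lhx6. Among 16 other interneuron markers, the median difference by tag was 0.25. Of these, 4 did not overlap, all higher with the tag (11.7% of tested genes did not overlap), and the same 4 had an unadjusted p under 0.05 (5.14% of tested genes), with 0 called: the neuropeptide genes Penk (1.03, SE 0.18) and Tac1 (1.08, SE 0.35), the nitric oxide synthase Nos1 (0.57, SE 0.19) and Lamp5 (0.55, SE 0.20), each with a limma adjusted p of 0.937. They were singled out after their values were seen. The means of the whole list overlapped, at -0.13 to 0.45 with the tag and -0.20 to 0.07 without it. Among 12 astrocyte markers the median was 0.24. The bicarbonate transporter Slc4a4 did not overlap, at 1228 to 1334 with the tag and 1476 to 1600 without it, and Gfap, the filament protein of astrocytes, had a difference of 0.51 (SE 0.19, limma adjusted p = 0.937). The astrocyte list means overlapped, at -0.12 to 0.39 and -0.15 to 0.07. A higher median with the tag was not particular to interneuron markers. It was 0.39 for 9 oligodendrocyte markers, -0.06 for 9 pyramidal and mossy cell, 0.0013 for 8 microglia and -0.05 for 9 granule cell markers. Of these, Mbp (0.74, SE 0.27) and Grik4 (1.23, SE 0.32) did not overlap, higher with the tag. Also 2 granule cell markers did not overlap, lower with it. None was called. The part of these cells in the readings of Slc6a11 and Lhx6 was not tested. The tag holds 1 control and 2 transgenic arrays, so it is partly aligned with the groups. The untagged arrays are all from mouse 2, and the arrays of mouse 1 of both groups are tagged. In the controls the tag thus cannot be told apart from the mouse. Arrays of the same mouse are not independent, so the SEs and p-values by tag do not measure the spread between mice.

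**Figure D4:**
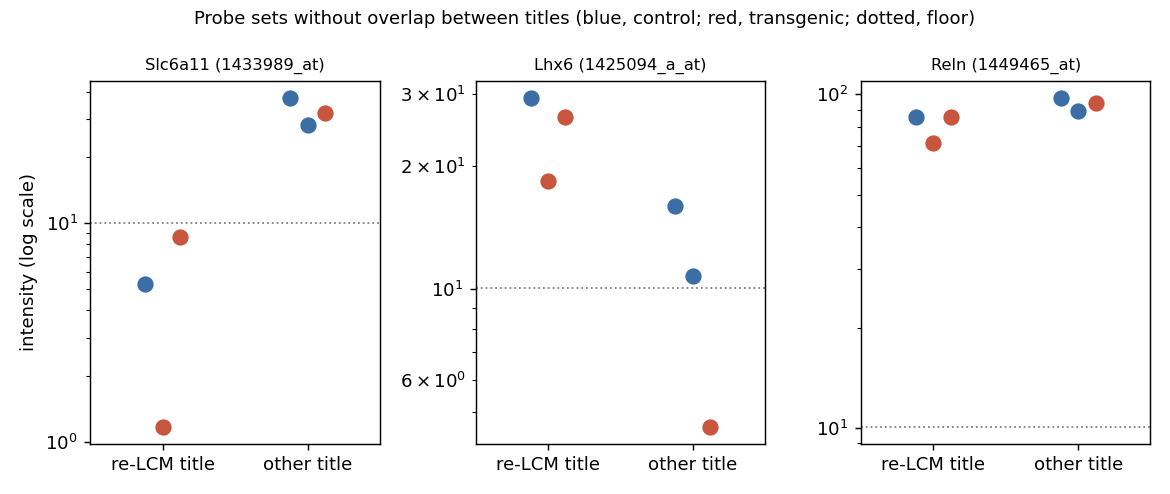
Intensity (log axis) of the 3 probe sets whose readings did not overlap between the 3 arrays with re-LCM in the title and the 3 others (blue, control; red, transgenic; dotted line, floor of 10.1). Slc6a11 lies under the floor with the tag and at 28.0 or more without it, Lhx6 runs the other way, and Reln is slightly lower with the tag.

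Other genes of GABA turnover and transport gave no called member either. Of 13 listed, 10 had a probe set and 6 were measured, 3 higher and 3 lower (median 0.03, 0 called). Slc38a2, a glutamine transporter that feeds neuronal glutamate and GABA synthesis, had the largest difference, 0.43 (SE 0.17). It read 842, 569 and 874 in the controls and 1022, 889 and 1238 in the transgenics. Groups did not overlap for this 1 of the 6, against 8.07% of all tested genes. Its arrays of a mouse differed by 0.62 in control mouse 2 and by 0.48 in transgenic mouse 2, more than the groups. The reductase Akr7a5 was next by p, at 0.26 (SE 0.17). Glul, the glutamine synthetase of astrocytes, gave 0.12 and Aldh5a1, which completes GABA breakdown, -0.08. The plasma membrane transporters Slc6a12 and Slc6a13 were under the floor on 4 and 3 arrays. On the receiving side, 5 of 9 genes of GABA-B receptors and chloride balance were measured, 3 higher and 2 lower (median 0.14, 0 called), with the carbonic anhydrase Car7 at 0.53 (SE 0.29), the GABA-B auxiliary subunit Kctd8 at 0.33 (SE 0.31), the receptor subunit Gabbr1 at -0.03 and the chloride exporter Slc12a5 at 0.14. Of the scaffold genes of GABA synapses, 6 of 8 were measured, 1 higher and 5 lower (median -0.10, 0 called), with the adhesion protein Nlgn2 at -0.48 (SE 0.29), Shisa7 at -0.22 (SE 0.16) and gephyrin (Gphn) at -0.05.

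Around Lhx6, 5 of 16 interneuron transcription factor genes were measured, 1 higher and 4 lower (median -0.12, 0 called). Sox6, of interneurons from the medial ganglionic eminence and of other cells, was first by p, at -0.84 (SE 0.48), and Prox1 was at -0.12. Sox6 passed the filter through the controls, with a transgenic mean of log2 4.89 under the filter of 4.92. Prox1, Satb1 and Zeb2, which were also measured, are not particular to interneurons. Dlx1 was under the floor on all 6 arrays, Dlx6 on 4 and Nkx2-1 on 3, while Dlx2 read 11.4 to 35.5. Of 28 other interneuron markers, 26 had a probe set and 16 were measured, 6 higher and 10 lower (median -0.21), 0 called and 2 with an unadjusted p under 0.05, against 4.31% of all tested genes. Those were Sst and Ndnf, which passed the filter through the controls: their transgenic means, log2 4.39 and 4.68, lay under the filter of 4.92, their control means, 5.85 and 5.55, above it. Sst (somatostatin) read 56.0, 62.0 and 57.5 in the controls and 26.1, 28.1 and 7.33 in the transgenics, a difference of -1.47 (SE 0.26, limma adjusted p = 0.999). The reading of 7.33 was raised to the floor, so the size and SE for Sst depend on the floor. The 2 arrays of transgenic mouse 2 differed by -1.48, as much as the groups. Ndnf, of neurogliaform and Cajal-Retzius cells, read 51.7, 44.8 and 39.9 and then 22.6, 28.3 and 30.0, a difference of -0.87 (SE 0.21, limma adjusted p = 0.999). For both the groups did not overlap, as for 8.07% of all tested genes. Igf1 was at -0.75 (SE 0.35). Cck, whose basket cells carry CB1, was at 0.35 (SE 0.16), against -0.32 for Cnr1, but Cck is also expressed by excitatory cells.

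Around Cnr1, 10 of 12 endocannabinoid genes were measured, 7 higher and 3 lower (median 0.11, 0 called). Mgll, the lipase that ends 2-arachidonoylglycerol signals, read 240, 233 and 248 in the controls and 385, 290 and 283 in the transgenics, a difference of 0.47 (SE 0.20) with no overlap. Abhd4, of anandamide synthesis, had -0.36 (SE 0.16), also with no overlap, but the 2 arrays of control mouse 2 differed by -0.74. Groups did not overlap for 2 of these 10 genes, against 8.07% of all tested genes. Dagla, which makes 2-arachidonoylglycerol, was at -0.24 and Faah, which breaks down anandamide, at 0.18. Cnr2, the other cannabinoid receptor, was under the floor on all arrays. Around Reln, 17 of 18 pathway genes were measured, 6 higher and 11 lower (median -0.06, 0 called). The receptor Lrp8 was at 0.36 (SE 0.15) and the kinase Fyn at -0.43 (SE 0.18). Groups did not overlap for 1 of the 17, Fyn, against 8.07% of all tested genes. Of 8 Cajal-Retzius markers 1 was measured, the calcium channel subunit Cacna2d2, at -0.13. Trp73, their defining transcription factor, was over the floor on 3 arrays, with 37.1 on control mouse 1 the highest, and Lhx1 on none.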

How the data were processed

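Total RNA of 6 samples was measured on Mouse Genome 430 2.0 arrays. The authors deposited 1 intensity per probe set, on a linear scale, with a 2% trimmed mean of 150.001 on each array. How probes were combined and background corrected, and by which program, is not given in the sources used here. The 64 control probe sets were left out. Gene names come from the platform annotation; the identifiers of all 9 genes matched a RefSeq table and changed 0 symbols.

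Values under the 25th percentile were raised to it and log2 taken. Probe sets with a mean above the median were tested, 1 per gene (highest mean), 14678 in all. The 2 arrays of a mouse were averaged, and a linear model with moderated variances (limma 3.58.1 in R 4.3.3, lmFit and eBayes; 2 residual and 2.70 prior degrees of freedom) compared the groups, and p-values were adjusted by Benjamini-Hochberg and called at 0.05. All 45037 probe sets were fitted the same way without the filter: members outside the tested genes are given from that fit. The 6 arrays limit the precision.

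Every member was described. The rule named up to 4 genes of smallest p from each of 13 lists; at least the first 2 are given where 2 were measured, and others were chosen after their values were seen. Members and lists were chosen with earlier results of these data known. Alternatives changed the normalization, floor, filter, probe set choice, replicate unit, tag term, a block for mouse number, the modelling of variance, and which mice or arrays entered.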

Additional observations from a re-analysis of the deposited data

How the results depend on the processing

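No alternative called a member gene or a member probe set. Over all genes 0 were called under 18 of 19 tested alternatives, and 1 with a variance trend and robust variance. Gad1 (0.07 to 0.16) and Cnr1 (-0.42 to -0.20) kept their direction in all 21 alternatives, Slc32a1 in 20. The other 6 changed sign in 2 to 7 alternatives each. This counts as changes Lhx6 at 0 with the floor at the median and Slc6a11 at 0 within the tagged arrays. Alternatives that changed only the filter, the variance model or the block for mouse number left the differences at their main values. Those could not turn a direction, and all alternatives reuse the same mice, so these counts are no measure of replication. In the tested alternatives that kept 2 mice in each group, 0 tested members had an unadjusted p under 0.05 (limma). Such counts are not given for leave-outs that left 1 mouse in a group. Over leave-outs the range was -1.01 to 0.21 for Gad2, -1.27 to 0.41 for Slc6a11, -0.42 to 0.32 for Abat, -1.03 to 0.27 for Pvalb, -0.77 to 0.40 for Lhx6 and -0.32 to 0.0077 for Reln; where a leave-out left 1 mouse in a group, that mouse was assumed to vary like the others. With 6 arrays as separate samples Abat was at 0.14, and with the tag as a term at 0.044. With the mouse as a random block Abat was at 0.31, Pvalb at 0.13 and Lhx6 at 0.13. In that random block fit the estimated correlation of the arrays of a mouse was -0.54, so they counted as less alike than arrays of different mice. Within the untagged arrays Gad2 was at 0.39, Slc32a1 at 0.053, Abat at 0.49, Pvalb at 0.27 and Reln at 0.014. Tagged minus untagged, leave-outs ran from -0.36 to 1.22 for Gad2, -0.23 to 0.81 for Slc32a1, -0.14 to 0.75 for Abat, -0.030 to 0.13 for Cnr1 and -0.41 to 0.34 for Pvalb. The causes were not tested. With the mouse number as a replicate block, 0 genes were called (smallest adjusted p = 0.960, limma), and Cnr1 was at -0.32. Mice of the same number share that number and, for mouse 1, the re-LCM title. Whether they were paired is not given. The differences of mouse 1 minus mouse 2 correlated at 0.033 across genes between the groups. Signals near the floor limit Slc6a11, Lhx6 and the dimmer probe sets.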
